A study of Homo sapiens with 6 samples.

Results

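The cytosolic ribosomal protein (RP) genes were taken by symbol from RNA-Seq of Caki2 cells with and without PBRM1. A gene belonged to them if its symbol was RPL or RPS with a number and an optional copy letter, RPLP0, RPLP1, RPLP2 or RPSA. This gave 86 of the 25369 genes counted, 52 of the large (60S) and 34 of the small (40S) ribosomal subunit. The rule itself uses symbols and no measured value, but it was set with earlier results of these data known. Of these, 81 genes (49 large and 32 small) passed a filter on low values and were tested. RPL10L, RPL21, RPL3L and RPS4Y2 were among those that did not pass it. The Y-linked RPS4Y1 and RPS4Y2 are counted here but their values are not given.

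Caki2 is a clear cell renal cell carcinoma (ccRCC) cell line that lacks PBRM1 protein, the subunit that defines the PBAF chromatin remodeling complex. Caki2+Vector, the control, is Caki2 with an empty doxycycline-inducible lentiviral vector, and Caki2+PBRM1 has full length PBRM1 in that vector, with 3 replicates (A, B and C) each. By the study's methods, lines with inducible vectors received doxycycline (2 µg/mL, a minimum of 72 h), without a separate statement for the empty vector samples. The inducible system needs the rtTA3 transactivator, which was delivered by a separate lentivirus. The cells were stable lines of a single cell line, kept under drug selection. The PBRM1 transcript added in Caki2+PBRM1 came from a Tet-driven construct and not from its own promoter. By the paper, Caki2 also expresses PBRM1 mRNA of its own. The sources used here do not say whether the replicates came from separate cultures, and p-values then measure the spread between these samples only.

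A value here is a normalized count, that is, a gene's reads over the size factor of the library, with no division by gene length. The filter kept genes that reached a value of 10 in 3 or more samples. Their log2(normalized count + 1) was fitted with limma, and a gene was called higher or lower in Caki2+PBRM1 where its adjusted p (Benjamini-Hochberg over all 13303 genes tested) was under 0.05. A log2 fold change is Caki2+PBRM1 against Caki2+Vector on this scale, given ± its SE from limma. Where a gene has 2 sets of 3 values, the set named first is Caki2+Vector A, B and C and the other is Caki2+PBRM1 A, B and C. PBRM1 itself stood at 195, 182 and 182 in Caki2+Vector and at 2432, 2521 and 2682 in Caki2+PBRM1. The libraries held 7312955 to 10835355 reads on genes. Replicates of Caki2+PBRM1 differed little beyond sampling noise, with chi-square per degree of freedom of 1.19 to 1.22 across genes. Caki2+Vector A stood apart from Caki2+Vector B and C (3.09 and 2.84, against 1.34 between B and C). The counts over RP genes, subunits and several, but not all, of the other gene lists are therefore also given without Caki2+Vector A. 

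Some markers of cell type differed between the groups. The renal marker PAX8 stood at 1888 to 2190 in all samples, and the epithelial cadherin CDH1 at 0 to 1.89. Of 9 renal and epithelial markers 7 were tested, of which 2 were called lower and 1 higher, where 13.0% of all genes were called lower and 16.2% higher. The keratins KRT8 (8276, 8812 and 8627 against 7737, 7743 and 7228, log2 fold change -0.18 ± 0.035, adjusted p = 2.1e-04) and KRT18 (3652, 3641 and 3295 against 2761, 2855 and 2741, log2 fold change -0.34 ± 0.041, adjusted p = 1.7e-07) were lower. VIM, an intermediate filament of mesenchymal cells, was higher (15443, 14822 and 14534 against 17210, 16623 and 16885, log2 fold change 0.18 ± 0.030, adjusted p = 3.4e-05). These 3 calls held without any 1 of the 6 samples, but with quantile normalization VIM did not pass (log2 fold change 0.034, adjusted p = 0.43). The epithelial marker EPCAM had low values and the opposite sign to these keratins. It stood at 13.3, 10.4 and 13.2 against 17.3, 19.6 and 13.4, without overlap, and was not called (log2 fold change 0.41 ± 0.29, adjusted p = 0.30). KRT19 (log2 fold change -0.063 ± 0.044, adjusted p = 0.30) and PAX2 (log2 fold change -0.26 ± 0.22, adjusted p = 0.41) were not called either. CA9, a hypoxia target common in ccRCC, was not tested and stood at 1.89, 2.83 and 0 against 15.2, 8.89 and 6.71, without overlap. Of 6 markers of blood and endothelial cells, PTPRC, CD3E, PECAM1, VWF and CDH5 lay between 0 and 5.68, with PTPRC at 5.68, 3.78 and 4.79 against 1.08, 0.889 and 0. CD68, a lysosomal protein found in other cells too, stood at 1992, 2140 and 2076 against 1919, 1935 and 1898 and was called lower (log2 fold change -0.11 ± 0.041, adjusted p = 0.046), in 1 of the 6 fits that left out a sample. These markers moved in the same contrast as the RP genes, and their part in the RP result was not tested.

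RPs and rRNA make up the ribosome. Each cell needs its RPs in about equal numbers, and proliferating cells spend a large part of their transcription and translation on them. Most RP mRNAs begin with a C at the cap followed by a run of pyrimidines, the 5' terminal oligopyrimidine (TOP) motif, through which mTORC1 and LARP1 control their translation. MYC is known to drive transcription of RP genes and of the machinery that makes rRNA.

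The first bases of several RP transcripts are shown, because this start is the sequence feature that RP genes share. Each line gives 15 bases before and 15 from the transcript start listed in RefSeq (GRCh38.p14), 5' to 3' on the strand of the gene. The whole 300 bases of each RefSeq sequence matched GRCh37, the build of the files (hg19), exactly once, and the GRCh37 position of the window is given. Capitals mark the C at the start and the pyrimidines (C or T) that follow it without a break. The first 6 genes were called lower in Caki2+PBRM1.
RPS23 (chr5:81574159-81574188, minus strand): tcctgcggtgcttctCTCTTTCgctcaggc
RPS24 (chr10:79793606-79793635, plus strand): cggcgaatcgtggttCTCTTTTCCTCCTTg
RPS21 (chr20:60962144-60962173, plus strand): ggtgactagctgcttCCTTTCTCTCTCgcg
RPLP2 (chr11:809952-809981, plus strand): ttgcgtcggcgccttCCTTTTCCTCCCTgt
RPS3 (chr11:75110547-75110576, plus strand): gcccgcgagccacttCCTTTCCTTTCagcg
RPL11 (chr1:24018281-24018310, plus strand): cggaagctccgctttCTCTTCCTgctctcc
The next 4 genes did not pass the threshold, and their starts carry runs of the same kind.
RPS16 (chr19:39926575-39926604, minus strand): gtggcccctagctttCCTTTTCCggttgcg
RPL34 (chr4:109541717-109541746, plus strand): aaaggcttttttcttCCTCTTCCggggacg
RPL28 (chr19:55897285-55897314, plus strand): tcgcccctcgccttcCTCTTTCCgtctcag
RPS12 (chr6:133135693-133135722, plus strand): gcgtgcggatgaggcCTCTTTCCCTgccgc
RPS4X and RPS29 were called lower although their listed start is not followed by such a run.
RPS4X (chrX:71497084-71497113, minus strand): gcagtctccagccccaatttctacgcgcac
RPS29 (chr14:50065414-50065443, minus strand): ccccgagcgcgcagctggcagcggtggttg

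A C followed by at least 4 pyrimidines exactly at the listed start, read on the gene's strand only, was found in 48 of the 69 RP genes with a sequence (69.6%), against 5.14% of 27305 genes. It was present in 18 of 22 RP genes called lower (81.8%) and in 29 of 44 tested RP genes that were not called (65.9%). Among the 42 large subunit genes with a sequence the share was 69.0%, and among the 27 of the small subunit 70.4%. RefSeq gives 1 start per gene here, and a start that is off by a base gives no match, so the absence of these letters says nothing of the transcripts in these cells.

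RP genes were slightly lower in Caki2+PBRM1 than in Caki2+Vector. Of the 81 RP genes tested, 25 were called lower and 0 higher, that is 30.9% lower, where 13.0% of all genes tested were called lower and 16.2% higher. The changes were small: genes called lower fell by 6.47% to 24.9% of their Caki2+Vector mean, with a median of 11.4%. The median log2 fold change was -0.095 for RP genes and -0.0036 for all genes, with 73 of 81 RP genes below 0 (90.1%, against 50.6% of all genes). In 34 RP genes (42.0%) every Caki2+PBRM1 sample lay under every Caki2+Vector sample, against 19.6% of all genes, and in 0 the reverse, against 22.1%. At an unadjusted p under 0.05, 35 of the 81 RP genes were lower and 1 higher. Of the 13303 genes tested, 5171 passed in either direction. The 5171 are not split by direction here, so no like background is given for the 35 lower RP genes. Normalized counts are relative to the other genes of a library, and mRNA per cell was not measured. In bulk RNA less mRNA per cell and fewer cells of a kind cannot be told apart.

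Both subunits contributed. In the large subunit 13 of 49 genes were called lower (26.5%) with a median log2 fold change of -0.082, and in the small subunit 12 of 32 (37.5%) with a median of -0.11. When Caki2+Vector A was left out, 11 genes of the large and 16 of the small subunit were lower. Whether the subunits differ was not tested. The range over all RP genes ran from -0.39 for RPL39 to 0.19 for RPS28, and the middle 50% of genes lay between -0.15 and -0.046. RP genes are abundant, and their median SE of 0.045 was below the 0.083 of all genes, so that smaller changes passed the threshold.

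**Figure D1:**
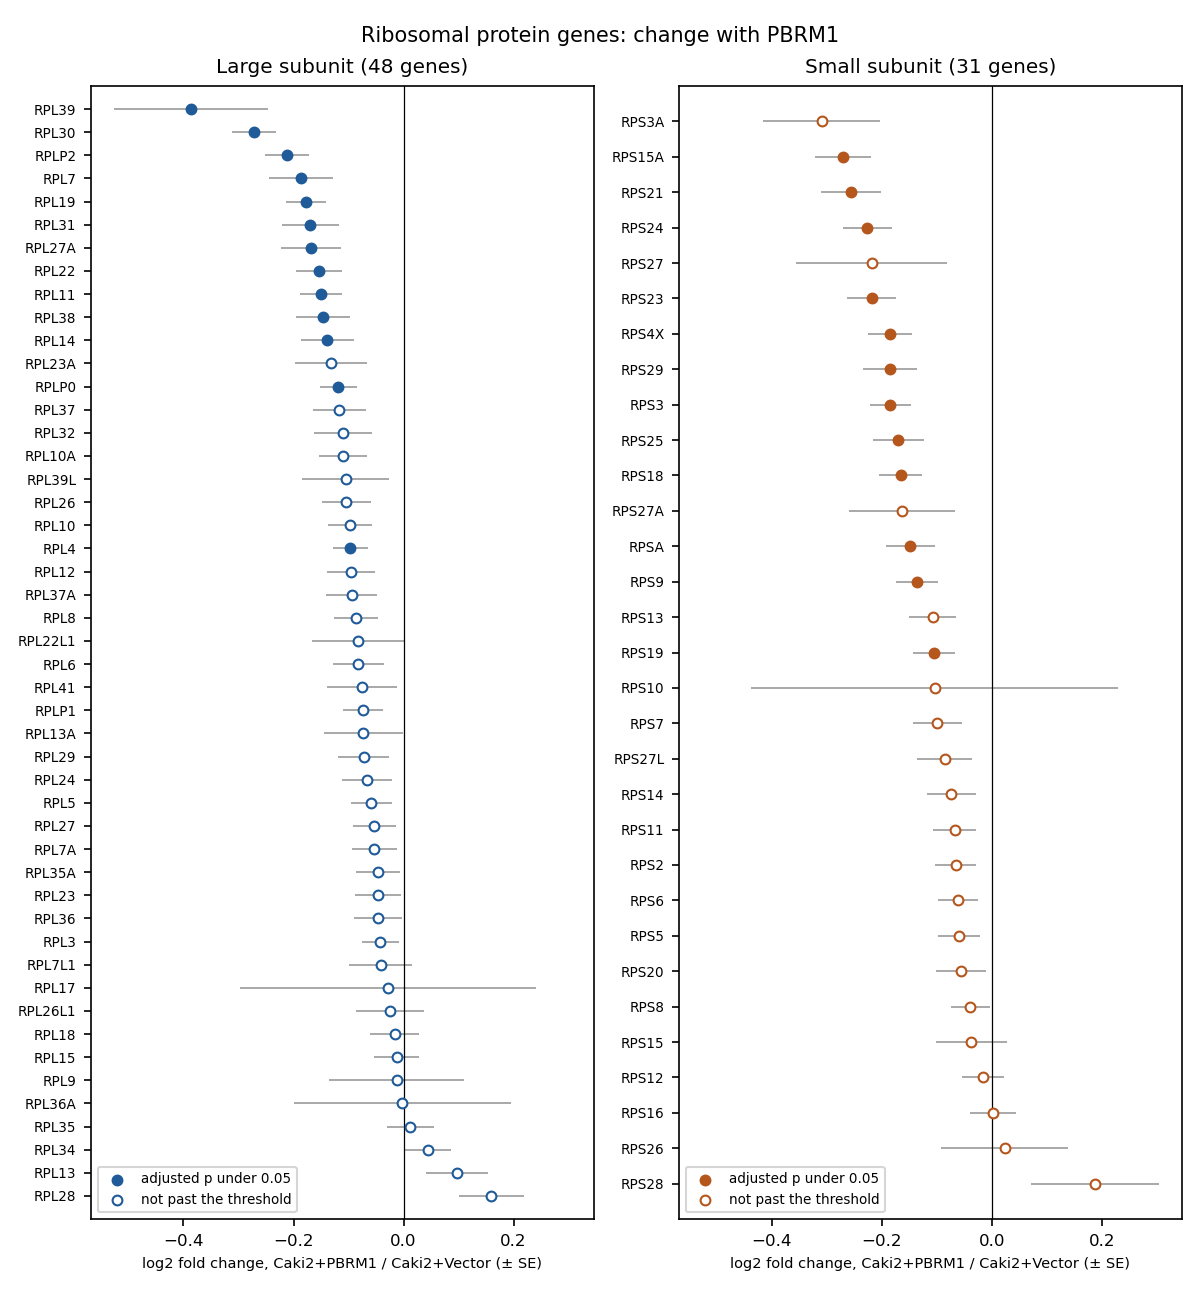
Log2 fold change (x axis, Caki2+PBRM1 against Caki2+Vector, bars are ± SE from limma, n = 3 per group) of 48 large and 31 small subunit genes, sorted by size. The Y-linked RPS4Y1 is among the genes left out of the plot. Filled points passed an adjusted p of 0.05, and all 25 of them lie to the left of 0, while 7 genes lie to its right.

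Single libraries moved the count. Without Caki2+Vector A, 27 RP genes were called lower (14.4% of all genes) and 0 higher, 20 of them among the 25. The 7 genes that passed newly were RPL8, RPL10A, RPL12, RPS2, RPS3A, RPS7 and RPS13. Leaving out Caki2+Vector C raised the number called lower to 38 (11.7% of all genes), whereas leaving out Caki2+PBRM1 B or Caki2+PBRM1 C lowered it to 16 (9.59%) and 13 (9.07%). The number was 22 without Caki2+Vector B (10.8% of all genes) and 20 without Caki2+PBRM1 A (9.61%). With edgeR on recovered whole reads 29 RP genes were lower and 1 higher, against 13.7% and 16.4% of all genes. With DESeq2 20 were lower and 0 higher, against 7.95% and 11.2%.

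The scaling of the libraries mattered too. With library totals in place of size factors the median of all genes moved to -0.058, and 2777 of all genes were lower (20.9%) and 1624 higher (12.2%), against 1734 and 2152 with size factors. On that scale 52 RP genes were lower and 0 higher, and their median lay -0.091 from that of all genes, as with size factors. A correction for transcript length and GC content brought the median of RP genes to -0.058 and that of all genes to -0.030, so their difference shrank from -0.091 to -0.028. With this correction 32 RP genes were called lower and 2 higher, and all genes gave 2621 lower (20.3%) and 2122 higher (16.4%).

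As a share of all reads, RP transcripts were lower in every Caki2+PBRM1 sample. The 86 genes took 2.52%, 2.51% and 2.36% of reads in Caki2+Vector A, B and C, and 2.25%, 2.19% and 2.19% in Caki2+PBRM1 A, B and C. The groups did not overlap, with means of 2.46% ± 0.085 and 2.21% ± 0.032 (SD, n = 3) and a difference of -0.252 percentage points. FN1, the most abundant gene, took at most 2.16% of reads in a Caki2+Vector sample and at least 3.79% in a Caki2+PBRM1 sample, and with FN1 left out of the total the difference was -0.216 points. The large subunit went from 1.41% to 1.28% and the small subunit from 1.05% to 0.931%. The ratio of large to small subunit reads was 1.34, 1.34 and 1.36 in Caki2+Vector and 1.37, 1.38 and 1.38 in Caki2+PBRM1. These ratios did not overlap either, and the distance between the means (ratios of 1.348 ± 0.0089 and 1.374 ± 0.0022, SD, n = 3) was 0.026.

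The samples did not split evenly by group. Over the 81 genes tested, the median log2 deviation from the Caki2+Vector mean was 0.029, 0.036 and -0.064 in Caki2+Vector A, B and C and -0.067, -0.12 and -0.11 in Caki2+PBRM1 A, B and C. Caki2+Vector C therefore lay beside Caki2+PBRM1 A and not beside the other controls. The highest sample of an RP gene was Caki2+Vector A in 35 genes and Caki2+Vector B in 34, but Caki2+Vector C in 4. The lowest was Caki2+PBRM1 C in 28 and Caki2+PBRM1 B in 27, and Caki2+Vector C in 12. The same deviations over all genes tested lay between 0.000046 and 0.0069 in the 6 samples. The median deviation is not a test, and no p was computed for it.

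**Figure D2:**
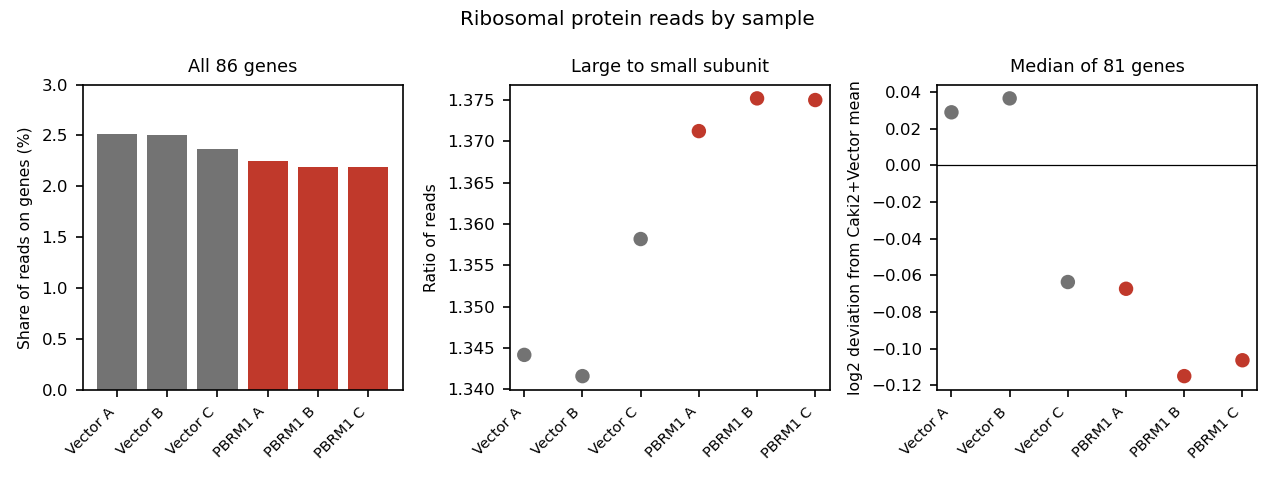
Share of reads on genes taken by the 86 RP genes (left, bars from 0), ratio of large to small subunit reads (middle) and median log2 deviation of the 81 tested genes from the Caki2+Vector mean (right) in each sample, with Caki2+Vector in grey and Caki2+PBRM1 in red. The share lies at 2.36% or more in every Caki2+Vector sample and at 2.25% or less in every Caki2+PBRM1 sample, while in the right panel Caki2+Vector C (-0.064) lies next to Caki2+PBRM1 A (-0.067).

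Of the 25 genes called lower, 11 were called in each of the 19 other fits, leave-one-out fits included. These were RPL30, RPLP2 and RPL19 of the large subunit and RPS23, RPS15A, RPS3, RPS24, RPS4X, RPS21, RPS18 and RPS25 of the small subunit, with log2 fold changes between -0.27 and -0.16. RPL30, a large subunit protein near the subunit interface, had the lowest adjusted p, with values of 4695, 4831 and 4312 in Caki2+Vector A, B and C and 3878, 3722 and 3845 in Caki2+PBRM1 A, B and C. All 3 Caki2+PBRM1 samples lay below the lowest control, and the log2 fold change was -0.27 ± 0.040 (adjusted p = 4.2e-06). RPS15A, a small subunit protein, stood at 3656, 3446 and 3043 in Caki2+Vector and 2857, 2726 and 2803 in Caki2+PBRM1, where the highest Caki2+PBRM1 sample lay close to Caki2+Vector C. Its log2 fold change was -0.27 ± 0.050 (adjusted p = 3.4e-04). RPS21 stood at 2788, 2788 and 2455 against 2408, 2083 and 2233, again without overlap (log2 fold change -0.26 ± 0.054, adjusted p = 0.0013).

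RPS24, one of the RPs mutated in Diamond-Blackfan anemia, went from 4893, 4548 and 4176 in Caki2+Vector to 3923, 3957 and 3742 in Caki2+PBRM1. Its highest control was Caki2+Vector A, and its log2 fold change was -0.23 ± 0.045 (adjusted p = 4.5e-04). RPL19, which forms a bridge between the subunits, stood at 6274, 6238 and 5729 against 5455, 5353 and 5310.2 (log2 fold change -0.18 ± 0.037, adjusted p = 4.3e-04). RPS18, of the head of the small subunit, stood at 5629.9, 5811 and 5168 against 5037, 4925 and 4837 (log2 fold change -0.16 ± 0.039, adjusted p = 0.0017). In RPL19 and RPS18 the gap between the groups lay between Caki2+Vector C and Caki2+PBRM1 A. RPS25, known for its part in initiation at internal ribosome entry sites, stood at 1580.0, 1744 and 1783 against 1539, 1499 and 1497 (log2 fold change -0.17 ± 0.047, adjusted p = 0.0062), and here Caki2+Vector A was the lowest control.

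**Figure D3:**
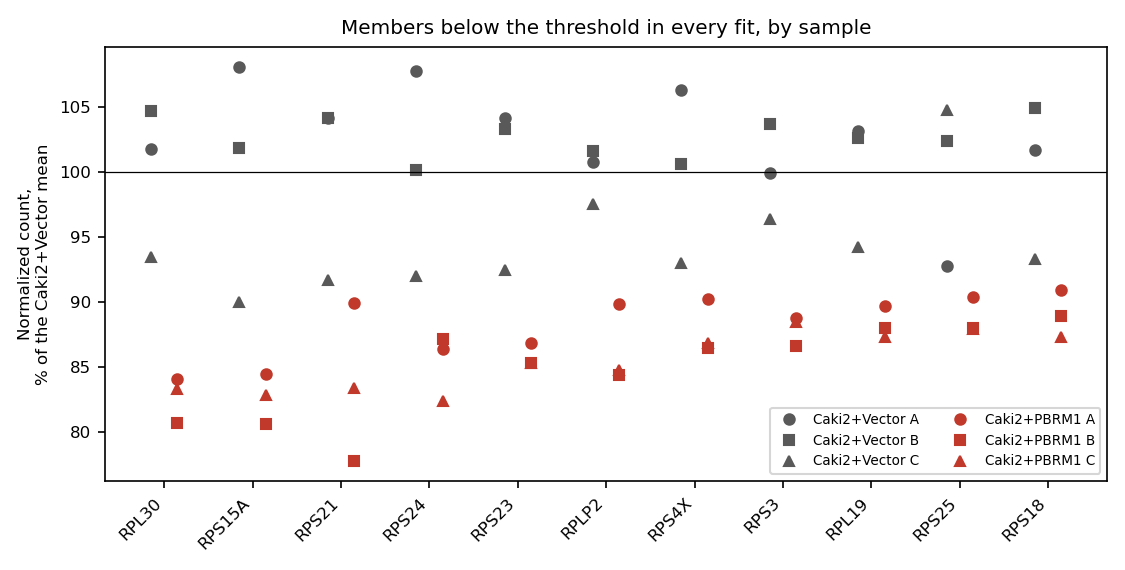
Normalized count of the 11 RP genes called lower in every fit, as a percentage of the Caki2+Vector mean of each gene (y axis, which does not start at 0), with Caki2+Vector in grey and Caki2+PBRM1 in red and the replicate shown by the symbol. In each gene the 3 red points lie under the 3 grey points, and Caki2+Vector C is the lowest control in all genes but RPS25.

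The ribosomal stalk recruits and activates the GTPases of translation. It holds RPLP1 and RPLP2 on RPLP0, with RPL12 at its base. RPLP2 (ENSG00000177600, plus strand of chromosome 11 of GRCh37, 809965 to 812880) stood at 2963, 2988 and 2869 in Caki2+Vector and 2643, 2483 and 2493 in Caki2+PBRM1, and its log2 fold change was -0.21 ± 0.039 (adjusted p = 1.2e-04). RPLP0 stood at 8175, 8402 and 7956 against 7667, 7417 and 7514 (log2 fold change -0.12 ± 0.033, adjusted p = 0.0068). Both fell, but RPLP0 did not pass without Caki2+PBRM1 B (adjusted p = 0.068) or without Caki2+PBRM1 C (adjusted p = 0.0501). RPLP1, the partner of RPLP2, had a log2 fold change of -0.074 ± 0.037 (adjusted p = 0.14) and RPL12 of -0.096 ± 0.044 (adjusted p = 0.099). In the stalk 2 of 4 genes were thus called lower (against 13.0% of all genes), and in RPL12, too, the groups did not overlap. Leaving out Caki2+Vector A gave 3 of 4, with RPL12 called (adjusted p = 0.030).

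RPL5 and RPL11 bind 5S rRNA, and outside the ribosome the same particle inhibits MDM2 and so stabilizes p53. RPL11 stood at 4128, 4046 and 3936 in Caki2+Vector and 3759.7, 3671 and 3483 in Caki2+PBRM1, with a change of -0.15 ± 0.038 (adjusted p = 0.0030), and it did not pass without Caki2+PBRM1 C (-0.12, adjusted p = 0.062). RPL5 stood at 3733, 3625 and 3519 against 3504, 3453 and 3485. In RPL5 the groups did not overlap either, but its change of -0.058 ± 0.037 (adjusted p = 0.25) did not pass the threshold.

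Around the tunnel through which the new peptide leaves, 5 of 9 genes were called lower, among them RPL19 given above. This was 55.6%, against 30.9% of RP genes and 13.0% of all genes. The count was 4, 3 and 6 without Caki2+Vector A, B and C, and 3, 2 and 1 without Caki2+PBRM1 A, B and C. RPL4, whose loop reaches into the tunnel, stood at 8609, 8643 and 8392 against 8157, 7912 and 7916 (log2 fold change -0.097 ± 0.032, adjusted p = 0.023). RPL22, at the outer face near the exit, stood at 2212, 2171 and 2054 against 1983, 1923 and 1881 (log2 fold change -0.15 ± 0.042, adjusted p = 0.0062). RPL31, next to the exit, stood at 3738, 3705 and 3134 against 3129, 3114 and 3133 (log2 fold change -0.17 ± 0.052, adjusted p = 0.018). The groups did not overlap in these 3 genes, but in RPL31 Caki2+Vector C lay only just above the Caki2+PBRM1 samples. RPL4 did not pass without Caki2+Vector B, Caki2+PBRM1 B or Caki2+PBRM1 C (adjusted p = 0.057 to 0.13), RPL22 without Caki2+PBRM1 C (0.059) and RPL31 without Caki2+Vector B or any 1 of the Caki2+PBRM1 samples (0.052 to 0.10).

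RPL39, which lines the tunnel, had the lowest log2 fold change of all RP genes, -0.39 ± 0.14 (adjusted p = 0.037). Its values were low, at 133, 90.7 and 92.3 in Caki2+Vector and 79.1, 74.7 and 83.9 in Caki2+PBRM1, and Caki2+Vector A was far above the other controls. Without Caki2+Vector A the log2 fold change was -0.21 (adjusted p = 0.29). It also missed the threshold without Caki2+PBRM1 A, B or C (adjusted p = 0.058 to 0.12). RPL7, RPL14, RPL27A and RPL38 were the other genes that lost their call without Caki2+Vector A (adjusted p = 0.052 to 0.12, log2 fold changes -0.14 to -0.085). The rest of the group did not pass: RPL23A at -0.13 ± 0.066 (adjusted p = 0.14, and -0.036 without Caki2+Vector A), RPL26 at -0.10 ± 0.045 (adjusted p = 0.080), RPL17 at -0.028 ± 0.27 (adjusted p = 0.95) and RPL35 at 0.012 ± 0.043 (adjusted p = 0.86).

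In the small subunit, RPS2, RPS3 and RPS23 line the mRNA channel and the decoding center, with RPS15, RPS12 and RPS27A in the head nearby. RPS23 (ENSG00000186468, minus strand of chromosome 5, 81569139 to 81574215) stood at 2475, 2454 and 2197 in Caki2+Vector and 2062, 2027 and 2027 in Caki2+PBRM1, which is a change of -0.22 ± 0.044 (adjusted p = 3.3e-04). RPS3 (ENSG00000149273, plus strand of chromosome 11, 75110559 to 75133324) stood at 3859, 4004 and 3722 against 3429, 3346 and 3416, a change of -0.18 ± 0.038 (adjusted p = 3.5e-04). Both fell, while RPS2, their neighbor at the entry of the channel, had a change of -0.066 ± 0.037 (adjusted p = 0.20) and values of 6846, 7668 and 7389 against 7076, 6803 and 7029 that overlapped. Without Caki2+Vector A, which was the lowest control of RPS2, its adjusted p was 0.00068. RPS27A (log2 fold change -0.16 ± 0.096, adjusted p = 0.24), RPS15 (log2 fold change -0.037 ± 0.065, adjusted p = 0.72) and RPS12 (log2 fold change -0.016 ± 0.039, adjusted p = 0.80) did not pass. Without Caki2+Vector A the log2 fold change of RPS27A was -0.028 and that of RPS15 -0.13.

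RPS3, RPS10 and RPS20 are the proteins that receive ubiquitin when ribosomes collide. RPS3 was called lower, as above. RPS20 stood at 3304, 3071 and 2823 against 3026, 2919 and 2891 (log2 fold change -0.055 ± 0.045, adjusted p = 0.39, and 0.00029 without Caki2+Vector A), and RPS10 was nearly uncounted at 8.39 to 17.3 (log2 fold change -0.10 ± 0.33, adjusted p = 0.85). RPS4X, encoded on the X chromosome, fell from 5916, 5597 and 5175 to 5018, 4811 and 4830.1 (log2 fold change -0.19 ± 0.040, adjusted p = 8.6e-04). RPS29, a short zinc-binding protein of the small subunit, stood at 1509, 1534 and 1472 against 1436, 1291 and 1251 (log2 fold change -0.18 ± 0.049, adjusted p = 0.0047), and it did not pass without Caki2+PBRM1 C (adjusted p = 0.069). RPS9 and RPSA were also called lower, at -0.14 and -0.15, but RPS9 did not pass without Caki2+PBRM1 C (adjusted p = 0.079) or RPSA without Caki2+PBRM1 B (adjusted p = 0.069). RPS19, the RP most often mutated in Diamond-Blackfan anemia, was just inside the threshold at -0.10 ± 0.039 (adjusted p = 0.041), and it was the sole gene among the 25 whose groups overlapped. RPS19 did not pass without Caki2+Vector B (log2 fold change -0.067, adjusted p = 0.23), without Caki2+PBRM1 B (-0.074, adjusted p = 0.28), without Caki2+PBRM1 C (-0.10, adjusted p = 0.14) or with DESeq2 (adjusted p = 0.097).

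Of the 56 tested RP genes that were not called, 48 lay below 0. In 10 of the 56 every Caki2+PBRM1 sample was under every Caki2+Vector sample. Over all genes tested, called genes included, these shares were 50.6% and 19.6%. The shares among uncalled genes alone were not computed, so no like background is given for the 56. RPS3A, the lowest of them, stood at 1038, 755 and 768 against 690.0, 663 and 692, with Caki2+Vector A far above the other controls, and had a log2 fold change of -0.31 ± 0.11 (adjusted p = 0.055). It was -0.16 without Caki2+Vector A and called lower (adjusted p = 0.015), and edgeR on all samples called it lower too (adjusted p = 0.0016). No RP gene was called higher, and 8 had a log2 fold change above 0. RPL28, a large subunit protein, came nearest to the threshold, with values of 1849.8, 2277 and 2056 in Caki2+Vector and 2283, 2199 and 2404 in Caki2+PBRM1 and a change of 0.16 ± 0.059 (adjusted p = 0.053). Its groups overlapped, because Caki2+Vector B lay above Caki2+PBRM1 B, and Caki2+Vector A was its lowest sample. RPL28 was called higher in 8 of the 19 other fits, and without Caki2+Vector A its log2 fold change was 0.084 (adjusted p = 0.089). RPS28 stood at 97.5, 108 and 104 against 118, 106 and 130.1 (log2 fold change 0.19 ± 0.12, adjusted p = 0.24) and RPL13 at 2768, 3313 and 3339 against 3409.8, 3316 and 3313 (log2 fold change 0.097 ± 0.056, adjusted p = 0.22, and 0.0085 without Caki2+Vector A). RPL34, RPS26, RPL35 and RPS16 lay between 0.0023 and 0.044. RPL34 was called higher in the 2 fits with the length and GC correction, and RPL13 in 1 of them.

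Several RPs have another gene, a paralog, whose product can take the place of the common one. Of the 9 paralogs, 6 were tested and 0 were called (13.0% of all genes were called lower and 16.2% higher), with a median log2 fold change of -0.084. RPL22L1 stood at 232, 237 and 231 against 223, 204 and 236 (log2 fold change -0.082 ± 0.084, adjusted p = 0.50), beside the fall of RPL22. RPS27L, a target of p53, stood at 1019, 977 and 950.5 against 934, 947 and 895 (log2 fold change -0.086 ± 0.050, adjusted p = 0.21), beside RPS27 with 257, 176 and 161 against 179.8, 168 and 152 (log2 fold change -0.22 ± 0.14, adjusted p = 0.26, and -0.016 without Caki2+Vector A). RPL39L had a change of -0.11 ± 0.079 (adjusted p = 0.34), RPL26L1 of -0.025 ± 0.063 (adjusted p = 0.81) and RPL7L1 of -0.041 ± 0.057 (adjusted p = 0.63). In RPS27L and RPL39L the groups did not overlap, and each Caki2+PBRM1 sample was lower. Of the other parent genes, RPL7 stood at 715, 659 and 636 against 599, 574 and 591 (log2 fold change -0.19 ± 0.058, adjusted p = 0.016), and RPL26 (-0.10), RPL10 (log2 fold change -0.097 ± 0.041, adjusted p = 0.072) and RPL3 (log2 fold change -0.042 ± 0.034, adjusted p = 0.37) were not called. RPL10L was at 0 in all samples and RPL3L, a gene of striated muscle, at 0 to 1.89.

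The starts of parent and paralog differ in the TOP motif in 2 of the 3 pairs shown here.
RPL22 (chr1:6259641-6259670, minus strand): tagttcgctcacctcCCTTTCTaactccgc
RPL22L1 (chr3:170587970-170587999, minus strand): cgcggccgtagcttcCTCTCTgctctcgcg
RPS27 (chr1:153963223-153963252, plus strand): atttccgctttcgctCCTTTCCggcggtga
RPS27L (chr15:63449662-63449691, minus strand): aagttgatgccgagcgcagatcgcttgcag
RPL26 (chr17:8286497-8286526, minus strand): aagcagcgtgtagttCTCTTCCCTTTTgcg
RPL26L1 (chr5:172385717-172385746, plus strand): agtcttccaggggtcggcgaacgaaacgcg
Over all paralogs with a sequence, 2 of 7 had such a start (28.6%).

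RPs encoded under other symbols were kept apart. FAU, which encodes RPS30 fused to a ubiquitin-like protein, stood at 1115, 1158 and 1147 against 1020.4, 1070.2 and 1009.7 and was called lower (log2 fold change -0.14 ± 0.048, adjusted p = 0.024). It did not pass without Caki2+Vector B, Caki2+Vector C, Caki2+PBRM1 A or Caki2+PBRM1 C (adjusted p = 0.059 to 0.12). GNB2L1 (RACK1) had a change of -0.060 ± 0.034 (adjusted p = 0.20) and RPL36AL of -0.12 ± 0.054 (adjusted p = 0.11).

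Levels between RP genes were compared per kilobase of coding sequence. The median over the 81 genes was 5069 per kilobase in Caki2+Vector, and 75 of the 81 lay above 10% of it. RPLP1 was the highest at 19775, followed by RPS19 at 13386 and RPL30 at 13370. At the other end RPS10, RPL17, RPL36A, RPL9, RPS26 and RPS28 lay between 25.4 and 498 per kilobase, and RPL21 was listed at 0 in every sample. These are genes that every cell uses. The annotation lists processed pseudogenes, copies that can share reads with their parent, for 78 of the 86 RP genes, with 128 of them for RPL21, 51 for RPL36A, 47 for RPL17, 36 for RPS26, 18 for RPL9, 11 for RPS10 and 5 for RPS28. How reads that match several places were counted is not given in the sources used here, so levels of genes with near-identical copies are uncertain. The read-through genes that overlap RPL17, RPS10 and RPL36A (RPL17-C18orf32, RPS10-NUDT3 and RPL36A-HNRNPH2) were listed at 0 in every sample. Per kilobase of coding sequence, RPS27L stood above its parent RPS27 (3897 and 784) and RPL39L above RPL39 (1743 and 690), whereas RPL22L1 stood far under RPL22 (638 and 5588). RPS27L and RPS27 both have 252 coding bases, but their listed transcripts have 6110 and 352 bases. The order of this pair therefore depends on the length used. Among 30 RP pseudogenes with a symbol in the files 13 were tested and 0 called, where 13.0% of all genes were called lower and 16.2% higher. The highest, RPSAP58, stood at 2498, 2774 and 2747 against 2541, 2576 and 2574 (log2 fold change -0.059 ± 0.042, adjusted p = 0.31). Its Caki2+Vector mean of 2673 was above the 1364 of its parent RPSA, which was called lower. How reads were shared between the 2 was not tested. Across the 81 genes the number of processed pseudogenes and the log2 fold change had a Pearson r of -0.13, and genes are not independent replicates.

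Caki2+Vector A differed from the other controls with the GC content of the transcript. In RP genes under 45% GC its median log2 difference from the mean of Caki2+Vector B and C was 0.080 (23 genes), and in RP genes of 55% GC or more it was -0.092 (13 genes). All genes tested moved in the same order, from 0.072 to -0.13. The median log2 fold change of RP genes was -0.10, -0.097, -0.097 and -0.059 in the classes under 45%, 45% to 50%, 50% to 55% and 55% or more, and without Caki2+Vector A it was -0.094, -0.074, -0.079 and -0.10. RP genes were thus below 0 in every class with and without that library. Across the 81 genes, GC content and log2 fold change had a Pearson r of 0.28, and of 0.12 without Caki2+Vector A.

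**Figure D4:**
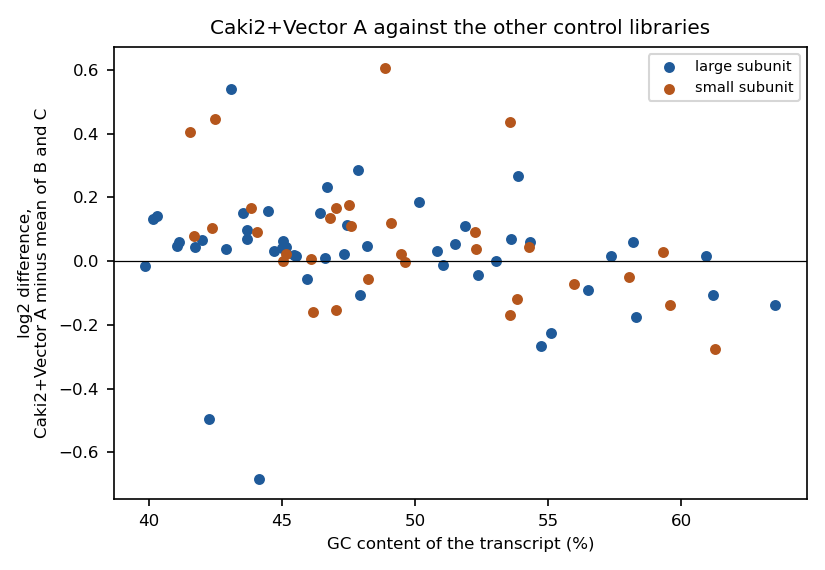
Log2 difference between Caki2+Vector A and the mean of Caki2+Vector B and C (y axis) against the GC content of the transcript in percent (x axis) for each tested RP gene of the large (blue) and small (orange) subunit, without RPS4Y1. Most points under 45% GC lie above 0 (median 0.080) and most points of 55% or more lie under 0 (median -0.092).

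Genes that build the ribosome were lower as well. Of 55 ribosome biogenesis factors tested, 22 were called lower (40.0%, against 13.0% of all genes) and 0 higher, with a median log2 fold change of -0.14, and without Caki2+Vector A 23 were lower. BRIX1 and RPF2, which act together in maturation of the large subunit, had the largest changes. BRIX1 stood at 819.8, 719.9 and 712 against 558, 606 and 606 (log2 fold change -0.34 ± 0.061, adjusted p = 5.9e-05). RPF2 stood at 418, 379 and 376 against 315, 307 and 301 (log2 fold change -0.34 ± 0.071, adjusted p = 4.1e-04). RIOK1, a kinase of late small subunit maturation, stood at 300.1, 342 and 283 against 255, 253 and 223 (log2 fold change -0.34 ± 0.084, adjusted p = 0.0027). In all 3 the groups did not overlap. TOP starts were found in 6 of the 47 biogenesis factors with a sequence (12.8%). Leaving out Caki2+PBRM1 B lowered the count to 14, as did DESeq2.

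RNA polymerase I transcribes rRNA, and 5 of 16 genes of its machinery were called lower (31.2%, against 13.0% of all genes) and 0 higher (against 16.2%), with a median of -0.12. The count was again 5 without Caki2+Vector A. POLR1E, a subunit of the enzyme, stood at 234, 207 and 237 against 181, 174 and 171 (log2 fold change -0.36 ± 0.089, adjusted p = 0.0024). ZNRD1, another subunit, had a change of -0.35 ± 0.11 (adjusted p = 0.018), and TAF1A, of the promoter factor SL1, of -0.34 ± 0.098 (adjusted p = 0.0089). ZNRD1 did not pass without Caki2+PBRM1 C (adjusted p = 0.093) and TAF1A without Caki2+PBRM1 B (adjusted p = 0.082), and without Caki2+PBRM1 B the group held 2 lower genes. Of 5 chaperones of single RPs, 1 was called lower (20%, against 13.0% of all genes) and 0 higher (against 16.2%). This was PDCD2L, a relative of the RPS2 chaperone PDCD2 (log2 fold change -0.48 ± 0.14, adjusted p = 0.0089). It did not pass without Caki2+PBRM1 B (adjusted p = 0.062) or with DESeq2 (adjusted p = 0.0503). Leaving out Caki2+Vector A gave 2 chaperones called lower, where 14.4% of all genes were.

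Genes that carry small nucleolar RNAs (snoRNAs) in their introns, and whose spliced products often have TOP starts, had the lowest median of the lists, -0.26. Of 12 tested, 7 were called lower (58.3%, against 13.0% of all genes) and 0 higher (against 16.2%), and 7 were lower without Caki2+Vector A. SNHG3 stood at 207, 250.4 and 235 against 179.8, 176 and 166 (log2 fold change -0.40 ± 0.091, adjusted p = 0.0011). GAS5 stood at 281, 265 and 228 against 192, 200.0 and 211 (log2 fold change -0.36 ± 0.089, adjusted p = 0.0026). SNHG15 stood at 233, 197 and 222 against 162, 169 and 189 (log2 fold change -0.32 ± 0.093, adjusted p = 0.0095), and it did not pass without Caki2+PBRM1 A (adjusted p = 0.062). The groups did not overlap in these 3 genes. Counting by strand is not given in the sources used here, so reads of host genes that overlap another gene cannot be told apart from that gene's reads.

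Translation factors and other genes with TOP mRNAs gave 4 of 14 lower (28.6%, against 13.0% of all genes) and 0 higher (against 16.2%), with a median of -0.030. Leaving out Caki2+Vector A gave 4 lower and 1 higher, with a median of -0.057. The median was -0.068 with the length and GC correction and -0.085 with library totals. EEF1B2 (log2 fold change -0.22 ± 0.051, adjusted p = 0.0015) and EEF1G (log2 fold change -0.22 ± 0.044, adjusted p = 4.7e-04), subunits of the exchange factor of elongation, were called lower, as was EIF3F (log2 fold change -0.16 ± 0.056, adjusted p = 0.034), which did not pass without Caki2+Vector B, Caki2+Vector C, Caki2+PBRM1 A or Caki2+PBRM1 C (adjusted p = 0.091 to 0.15). EEF2, the translocase, stood at 16959.9, 19785 and 19804 against 20629, 20608 and 20745, a change of 0.14 ± 0.050 (adjusted p = 0.064) that did not pass, with Caki2+Vector A the lowest sample. Its mRNA and that of EEF1A1 (log2 fold change 0.026 ± 0.029, adjusted p = 0.56) did not share the sign of most RP genes.

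Of 15 genes that control TOP mRNAs or RP transcription, 2 were called higher and 2 lower, each 13.3% of the list, near the 16.2% and 13.0% of all genes. Leaving out Caki2+Vector A gave 1 higher and 1 lower. MYC stood at 1107, 1169 and 1220.1 in Caki2+Vector and 916, 959.9 and 958 in Caki2+PBRM1 and was lower (log2 fold change -0.30 ± 0.050, adjusted p = 2.3e-05). MXI1, an antagonist of MYC at the same DNA sites, stood at 193, 195 and 192 against 297, 292 and 301 and was higher (log2 fold change 0.62 ± 0.079, adjusted p = 4.7e-07). Neither gene's groups overlapped. RPS6KB1, the S6 kinase downstream of mTORC1, was called lower (log2 fold change -0.17 ± 0.059, adjusted p = 0.029) and RPTOR, the mTORC1 subunit that binds substrates, higher (log2 fold change 0.22 ± 0.077, adjusted p = 0.037). Without Caki2+Vector A neither of these passed (-0.13, adjusted p = 0.083, and 0.12, adjusted p = 0.10). RPS6KB1 also missed the threshold without Caki2+PBRM1 A, B or C (adjusted p = 0.068 to 0.093), and RPTOR without Caki2+PBRM1 A or C (adjusted p = 0.13 to 0.16). MTOR (-0.015) and LARP1 (-0.0060) were not called. Whether any of these moved RP transcripts was not tested.

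**Figure D5:**
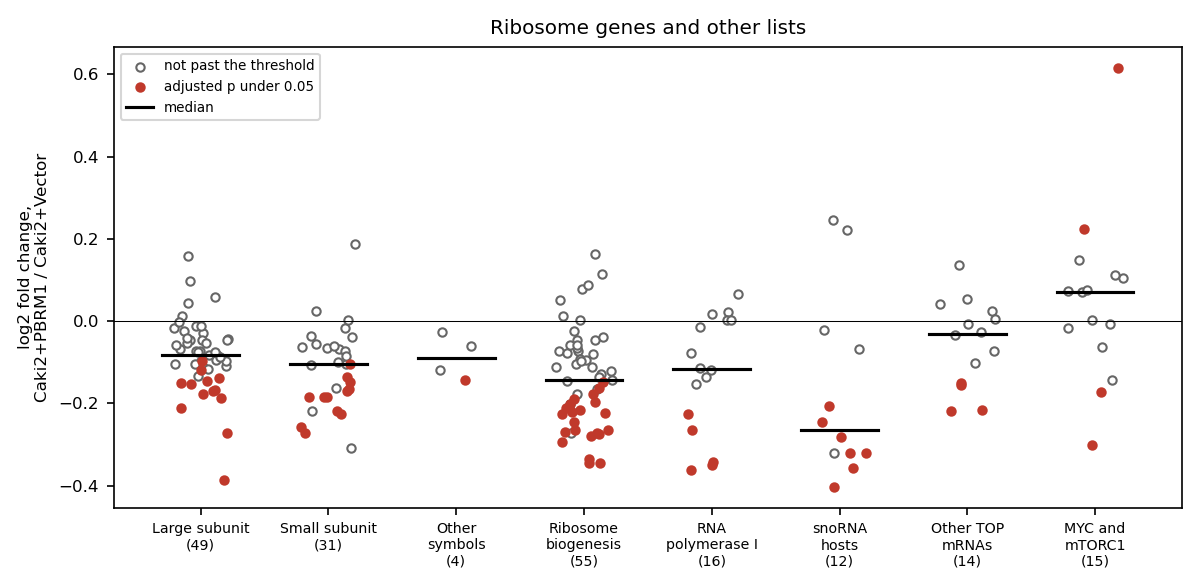
Log2 fold change (y axis, Caki2+PBRM1 against Caki2+Vector) of RP genes and of the other lists, with the number of genes tested under each name, each point a gene, red where the adjusted p was under 0.05, and a black bar for the median. The medians are -0.082 for the large and -0.11 for the small subunit, -0.14 for ribosome biogenesis and -0.26 for snoRNA hosts, and the highest point is MXI1 at 0.62.

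The RPs of the mitochondrial ribosome, which is built from other genes, gave 26 of 78 lower (33.3%, against 13.0% of all genes) and 3 higher (3.85%, against 16.2%), with a median of -0.12. Leaving out Caki2+Vector A gave 31 lower and 3 higher. With library totals 43 were lower and 0 higher, with DESeq2 20 and 0, and without Caki2+PBRM1 C 21 and 0. Their share called lower was close in size to the 30.9% of cytosolic RP genes, and the difference between the groups of genes was not tested.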

How the data were processed

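RNA-Seq of 3 Caki2+Vector and 3 Caki2+PBRM1 samples was analysed, grouped by the sample labels. The authors trimmed the reads (paired-end, 100 bp, poly(A) RNA), removed rRNA reads, aligned the rest to hg19 with STAR, counted them on UCSC hg19 genes with htseq-count and normalized with DESeq2. Versions are not given in the sources used here. The values the authors deposited are a signal per gene, the read count divided by a size factor per sample (0.834 to 1.191), and 100% of them were whole multiples of 1 step per sample (tolerance 0.01 reads), so whole reads could be recovered.

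RP genes and lists were chosen with earlier results of these data known. log2(value + 1) was fitted without a block in limma 3.58.1 (R 4.3.3, trend and robust), with the filter, adjustment and threshold given above. Named genes were the 10 called RP genes with the lowest adjusted p and no overlap between groups, paralogs and parents, the functional groups, RPs under other symbols, and up to 3 called genes per direction in other lists. RPL28, RPS28, RPL13, RPS3A and other uncalled genes were named after their values were seen.

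Alternatives were pseudocounts of 0.5 and 4, no filter, at least 10 in every sample, TMM, library totals, quantile normalization, the replicate letter as a block, a length and GC correction (loess span 0.3), leaving out each sample, and edgeR 4.0.16, DESeq2 1.42.0 and voom on recovered reads. Transcript length, GC content and pseudogenes came from GENCODE on GRCh37 and covered 97.1% of tested genes and 100% of tested RP genes. Scripts were tested on simulated data. Some genes enter the counts but are not reported by name here. Sequences are RefSeq's, without those of RPL30 and some other genes. Python 3.11.15, pandas 2.3.3, numpy 2.4.6 and matplotlib 3.10.9 were used.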

Additional observations from a re-analysis of the deposited data

How the results depend on the processing

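The direction of the median of either subunit did not change in any alternative, but its distance from the median of all genes did. With the length and GC correction this distance shrank from -0.078 to -0.018 in the large subunit. In the small subunit it shrank from -0.10 to -0.059. The share of reads rests on recovered reads and library totals. It was not recomputed under the alternatives, so they could not change it. The number of RP genes called lower (25) was 52 with library total scaling (large subunit 30, small 22), 41 with quantile normalization (22 and 19), and 13 to 38 when 1 sample was left out (large subunit 4 to 19, small 9 to 19). The number called higher (0) was 1 with no filter, with TMM, with edgeR and with the replicate block, 2 with the length and GC correction and 3 when that correction was joined with the replicate block, all of them in the large subunit, and 0 to 1 when 1 sample was left out. Of the 25 genes, 25 remained in each fit on all samples except DESeq2, which called 20. The median of the large subunit (-0.082) was -0.14 with library total scaling, where that of all genes was -0.058. With the length and GC correction it was -0.048, where that of all genes was -0.030. Over all genes, 1734 called lower became 2777 with library total scaling, 2621 with the length and GC correction, 2658 with this correction and the replicate block, and 1057 with DESeq2.

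The letters A, B and C did not pair the samples: deviations from the group means had a Pearson r across genes of -0.008 to 0.014 for equal letters and -0.024 to 0.017 for different ones. With the replicate block 29 RP genes were lower and 1 higher, 1 biogenesis factor was higher, and 1 other TOP gene was higher.

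Among the lists, biogenesis factors called lower (22) were 34 with library total scaling, 14 with DESeq2 and 14 to 23 when 1 sample was left out, and 1 was higher with the length and GC correction, with or without the replicate block, and 0 to 2 when 1 sample was left out. RNA polymerase I genes called lower (5) were 8 with library total scaling, 2 with DESeq2 and 2 to 6 when 1 sample was left out. Other TOP genes called lower (4) were 7 with library total scaling and with the length and GC correction, with or without the block, and 2 to 4 when 1 sample was left out, and 1 was higher with TMM, quantile normalization, edgeR, DESeq2 and the length and GC correction, and 0 to 1 when 1 sample was left out. Of the genes that control TOP mRNAs, 1 was higher with library total scaling and 1 with DESeq2, 4 were lower with the length and GC correction and 1 with DESeq2, and leaving out 1 sample gave 1 to 2 higher and 1 to 2 lower. Of the snoRNA hosts 0 to 1 were higher when 1 sample was left out. Mitochondrial RP genes called lower (26) were 43 with library total scaling and 20 to 31 when 1 sample was left out, and those called higher (3) were 6 with the length and GC correction, 1 with no filter or quantile normalization, 0 with library total scaling or DESeq2, and 0 to 3 when 1 sample was left out. The cause of these shifts was not tested. Over single RP genes, 1381 of the values under alternatives kept their side of the threshold and direction, 98 passed it newly and 40 no longer passed. At this depth the median SE was 0.045 for RP genes, and changes near the sizes reported pass or miss the threshold with 1 sample.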
